A study of Mus musculus with 6 samples.

Results

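The forkhead genes encode transcription factors that share the forkhead, or winged-helix, DNA-binding domain. They were taken as the protein-coding genes of GRCm38 whose symbol is Fox, a letter from a to s and a digit, which gave 44 of 21883 genes. Members were defined by name, and this choice was made with earlier results of these data known. ATAC-seq, which marks open chromatin by the sites where a transposase can insert adapters, was done on mouse embryonic fibroblasts (MEFs) from embryos at day 13.5, with 3 wild-type (Acvr1+/+) and 3 FOP mutant (Acvr1R206H/+) libraries, described as biological replicates, of cells grown in the same serum-containing medium. Acvr1 codes for ALK2, a type I receptor of BMP ligands, and R206H is the activating mutation of fibrodysplasia ossificans progressiva (FOP), in which bone forms in soft tissue. The mutant cells carry it on 1 allele, and the labels do not say whether a library came from 1 embryo or from pooled embryos. The authors' deposited lists hold 2965 regions that were more accessible and 556 that were less accessible in mutant cells. They are positions with no value per library, so depth is unknown and replicate error could not be assessed. For the same reason the fibroblast label could not be checked against marker genes.

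Forkhead proteins bind a short AT-rich core, and several, led by the FOXA factors, can open closed chromatin at enhancers. FOXO proteins are held out of the nucleus when insulin or growth factor signalling is active, and FOXP proteins act mainly as repressors. FOXC, FOXF and some FOXD factors pattern mesoderm and mesenchyme, the origin of fibroblasts, cartilage and bone. FOXH1 is a partner of the SMAD proteins that answer activin and Nodal, the sister branch of BMP signalling. Many of these genes are short and lie beside long stretches without genes, in which distant enhancers can sit.

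Forkhead genes had a differential region assigned to them about as often as genes in general, and every such region was more accessible in mutant cells. A region was assigned to a gene when its midpoint lay inside the gene span, or, outside all spans, when that gene was the nearest within 100 kb. By this rule 6 more accessible regions fell to 4 members, Foxp1 and Foxn3 with 2 each and Foxj3 and Foxd2 with 1 each. The 4 members are 9.09% of the family (exact 95% interval 2.53 to 21.7%), beside 7.27% of all protein-coding genes. No less accessible region was assigned to any of the 44 members (exact 95% interval 0 to 8.04%), beside 1.99% of all genes. Both intervals hold the share of all genes. Counting regions inside the span alone, 3 members held a more accessible region, beside 4.27% of all genes, and 0 held a less accessible one, beside 1.09%. The other 40 members had no assigned region in either list. Assigned by the nearest gene end in place of the span, 3 more accessible regions fell to members, and the 2 inside Foxp1 were not among them.

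The upstream sequences of these 4 genes are shown because the offsets given below are measured from their transcription starts. Each line holds the 250 bases before a start given by RefSeq for GRCm38.p6, on the strand of the gene, 5′ to 3′. Capitals mark TGTTTGC, a forkhead core motif, or GGCGCC, a GC-rich motif bound by BMP-activated SMADs, on either strand, so that the reverse complement of the forkhead core reads GCAAACA.
Foxp1, outermost start, chr6:99520994-99521243, minus strand: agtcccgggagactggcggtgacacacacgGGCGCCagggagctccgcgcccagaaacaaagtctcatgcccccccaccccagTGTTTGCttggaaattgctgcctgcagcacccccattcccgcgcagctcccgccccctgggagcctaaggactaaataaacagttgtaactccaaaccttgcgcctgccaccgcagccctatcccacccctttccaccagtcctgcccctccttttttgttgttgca
Foxp1, middle start, chr6:99266516-99266765, minus strand: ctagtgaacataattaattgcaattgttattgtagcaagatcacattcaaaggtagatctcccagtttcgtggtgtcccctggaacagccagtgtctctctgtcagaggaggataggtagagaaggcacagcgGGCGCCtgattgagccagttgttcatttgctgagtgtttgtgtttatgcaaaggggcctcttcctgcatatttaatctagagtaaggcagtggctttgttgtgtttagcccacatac
Foxp1, innermost start, chr6:99028299-99028548, minus strand: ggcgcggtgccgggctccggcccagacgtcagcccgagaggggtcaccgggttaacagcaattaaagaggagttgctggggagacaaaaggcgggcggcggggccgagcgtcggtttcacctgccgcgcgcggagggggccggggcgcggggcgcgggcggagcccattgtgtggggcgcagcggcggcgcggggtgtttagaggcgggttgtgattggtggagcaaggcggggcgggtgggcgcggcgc
Foxn3, chr12:99450075-99450324, minus strand: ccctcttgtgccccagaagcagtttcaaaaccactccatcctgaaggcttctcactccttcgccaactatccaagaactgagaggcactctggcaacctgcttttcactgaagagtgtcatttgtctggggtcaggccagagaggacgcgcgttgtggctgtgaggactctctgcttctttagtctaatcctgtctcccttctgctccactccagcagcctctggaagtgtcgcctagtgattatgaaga
Foxj3, chr4:119539411-119539660, plus strand: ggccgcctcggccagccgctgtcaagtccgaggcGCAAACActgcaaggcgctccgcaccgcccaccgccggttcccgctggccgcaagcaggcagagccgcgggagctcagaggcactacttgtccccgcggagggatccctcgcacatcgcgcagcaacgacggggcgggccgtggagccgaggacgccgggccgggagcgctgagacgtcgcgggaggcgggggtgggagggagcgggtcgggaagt
Foxd2, chr4:114908899-114909148, minus strand: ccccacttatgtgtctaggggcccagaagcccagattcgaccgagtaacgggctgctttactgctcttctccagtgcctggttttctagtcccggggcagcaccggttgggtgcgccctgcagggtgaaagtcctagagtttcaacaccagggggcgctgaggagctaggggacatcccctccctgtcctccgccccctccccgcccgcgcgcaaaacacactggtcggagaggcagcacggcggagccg

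The starts of Foxp1 differed in base composition, with 60.8% G and C before the outermost, 45.2% before the middle and 74.0% before the innermost start. The number of CG dinucleotides in these 250 bases was 11, 3 and 34. The outermost held TGTTTGC and GGCGCC once each, and the middle start held GGCGCC once. The Foxj3 sequence, at 74.4% G and C with 34 CG dinucleotides, held the forkhead core once, and those of Foxn3 and Foxd2 held neither motif. The only Foxn3 start given, at 99450074, lies inside the gene span, whose 5′ end is at 99563667. The sequence before that 5′ end was not available. Over the 33 starts given for 28 of the 44 members, 3 (9.09%) held TGTTTAC or TGTTTGC on either strand, beside 7.29% of 32851 mouse starts. GGCGCC was in 5 of the 33 (15.2%), beside 9.59%. The median G and C content of the member starts was 62.0%, beside 52.4% of all starts. These matches describe letters and not binding.

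No differential region of either list lay at these starts. The nearest region to any of the 33 starts was 12.6 kb away, at Foxj3, and the next nearest were 35.0 kb from the start of Foxe3 and 52.2 kb from that of Foxd2. Within 10 kb there were regions for 0 of 33 member starts, beside 2.37% of 32619 starts on chromosomes with a listed region. The median distance from a start to the nearest region was 437 kb for the 33 member starts and 311 kb for all starts. These 33 starts cover 28 of the 44 members, and Foxa2 and Foxp1 count 3 times each. Measured from the gene span, which all 44 members have, the median was 340 kb, beside 341 kb for all genes.

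Foxp1, a transcriptional repressor with roles in heart, lung, blood and cartilage development, is the longest member at 597 kb (chromosome 6, 98925342 to 99522746). Both of its assigned regions lay inside the span. The first, chr6:99376515-99377063, was 549 bp wide, 144 kb downstream of the outermost start and 110 kb upstream of the middle start. The second, chr6:99143173-99143962, was 790 bp wide, 123 kb downstream of the middle start and 115 kb upstream of the innermost start. Each region thus lay in a different interval between the starts given, and they were 233 kb apart. The span reaches beyond the outermost start given, at 99520993, so these may not be all the starts of Foxp1. Another more accessible region, 1202 bp wide, lay 155 kb beyond the 3′ end of the gene at chr6:98769297-98770498, and another, 586 bp wide, lay 408 kb beyond the 5′ end at chr6:99930217-99930802. Neither had a protein-coding gene within 100 kb. The nearest less accessible region was 987 kb from Foxp1.

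The 2 regions in Foxp1 make 3.35 more accessible regions per Mb of its span. Over the 556 genes with spans of 300 kb and over this density was 1.50 per Mb, and over all genes 1.30 per Mb. Of those long genes 44.2% held a more accessible region. Foxp1 is described because it held regions, while the class density also counts long genes that held none. The 2 densities are therefore not like for like, and no difference was tested. Foxp2, known for its part in speech and in the lung, spans 541 kb and held 0; its nearest region, also more accessible, was 154 kb outside the gene and inside Ppp1r3a. Foxp4, of 57.5 kb, and Foxp3 on the X chromosome, the regulatory T cell factor, had no region within 500 kb.

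Foxn3, a repressor linked to cell cycle checkpoints, spans 374 kb on chromosome 12 (99190081 to 99563667). One of its 2 more accessible regions, chr12:99294915-99295557, was 643 bp wide and inside the gene. It lay 155 kb downstream of the given internal start and 268 kb from the 5′ end of the span. The other, chr12:99113495-99114392, was 898 bp wide and lay 76.1 kb beyond the 3′ end of the gene, 336 kb from the start. The lncRNA Gm40554 lies nearer to that second region, at 40.9 kb. The regions were 181 kb apart, and the nearest less accessible region was 10360 kb from the gene.

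Foxj3, a broadly expressed factor with roles in muscle and in sperm, spans 89.5 kb on chromosome 4 (119539661 to 119629119). Its region, chr4:119551976-119552502, was 527 bp wide and lay 12.6 kb downstream of the start, inside the gene. It was the closest to a transcription start of the 6. Other more accessible regions lay 345 kb and 447 kb away, both inside Hivep3, between Foxj3 and the FOXO gene Foxo6. Of the 2516 genes with spans of 50 to 100 kb, 11.4% had an assigned more accessible region, beside 1 of the 5 members of that size.

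Foxd2, expressed in mesenchyme of the face and kidney, is a gene of 2.62 kb on chromosome 4 (114906280 to 114908898). Its more accessible region, chr4:114853874-114854477, was 604 bp wide and lay 52.1 kb beyond the 3′ end of the gene. It lies within the spans of the lncRNAs Gm12830 and Gm33655. On the other side of Foxd2, at a distance of 52.2 kb, was a less accessible region of 371 bp, chr4:114960886-114961256, inside Cmpk1. That region was 35.0 kb from Foxe3, a lens gene 15.5 kb from Foxd2. The 2 neighbouring forkhead genes thus had a more accessible region on one side and a less accessible region on the other, 107 kb apart. Farther out, Trabd2b held more accessible regions 483 kb and 369 kb from Foxd2 and a less accessible region 311 kb from it.

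**Figure D1:**
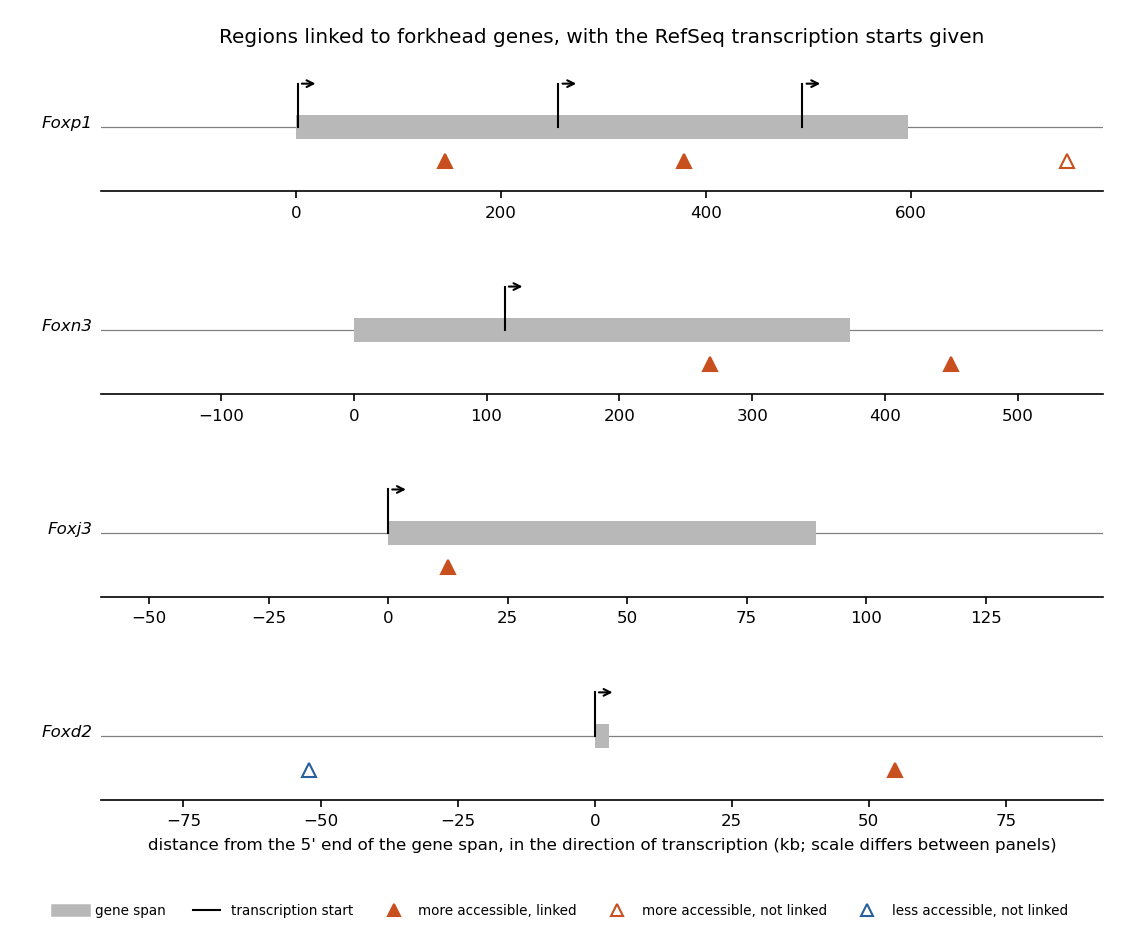
Positions of differential regions at the 4 forkhead genes with an assigned region; the x axis is the distance in kb from the 5′ end of the gene span in the direction of transcription, with a different scale in each panel, grey bars are gene spans, arrows are RefSeq starts, filled triangles are assigned regions and open triangles are regions not assigned to the gene. In Foxp1 a region lies in each of the 2 intervals between the 3 starts given, which may not be all of its starts. At Foxd2 a more and a less accessible region lie about equally far to either side, 54.7 kb and 52.2 kb from its start. The Foxp1 region 408 kb beyond the 5′ end lies outside its panel.

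The 6 assigned regions were not close to each other or to other regions of their list. The nearest more accessible neighbour of each was 181 to 422 kb away, beside a median of 121 kb over the 2965 regions (quartiles 32.3 and 361 kb). Their widths of 527 to 898 bp lay between the 42.1st and 86.9th percentiles of the list. Inside a gene lay 4 of the 6 (66.7%), beside 58.7% of the 2289 more accessible regions assigned to any gene. The annotation gives no exons, so whether they are exonic or intronic was not analysed here.

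The share of members with an assigned region was set beside that of genes of like span. Of the 26 members under 10 kb, 1 had a more accessible region, beside 1.83% of 7924 genes of that size. Of the 10 members of 10 to 50 kb there were 0, beside 4.33% of 9015. Of the 3 members of 300 kb and over, Foxp1, Foxp2 and Foxn3, there were 2, beside 47.1% of 556. The exact 95% interval of the forkhead share held the share of all genes in each of these classes. The median member spans 5.19 kb, beside 17.2 kb for all genes, but the sequence from which a midpoint would be assigned to it, its span plus the nearer part of the flanking gaps, had a median of 91.6 kb, beside 45.8 kb. Summed over members this sequence was 5.56 Mb and held 1.08 more accessible regions per Mb, beside 1.19 per Mb over all genes.

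**Figure D2:**
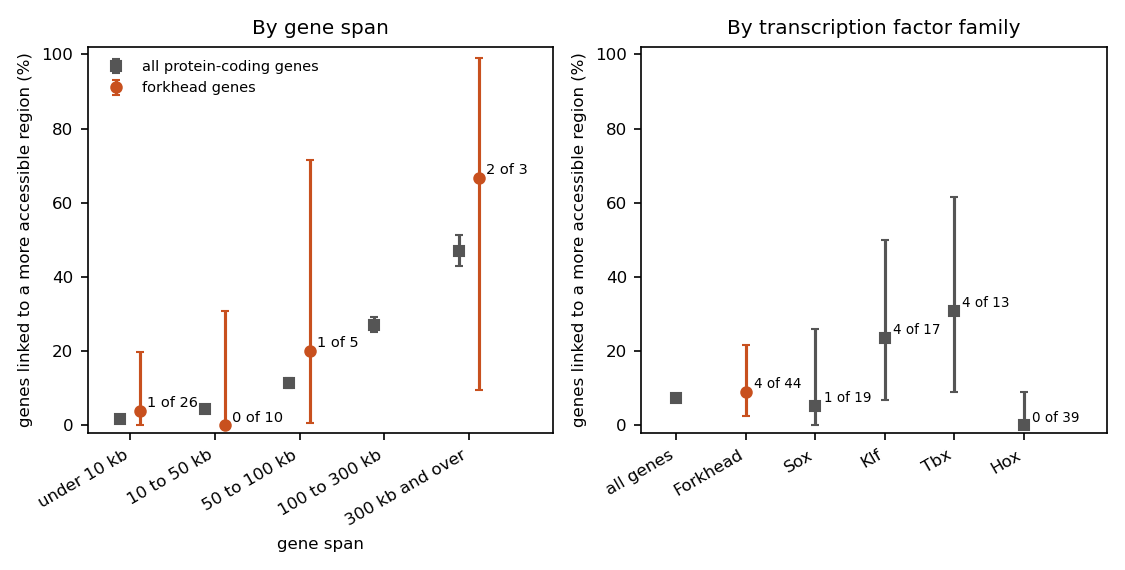
Percentage of genes with an assigned more accessible region, by gene span (left) and by transcription factor family (right); points are shares with exact 95% binomial intervals, and labels give the number of genes with a region. The forkhead share was 9.09% in all, with 1 of 26 members under 10 kb and 2 of 3 members of 300 kb and over, and no member spans 100 to 300 kb.

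All 6 assigned regions were more accessible (exact 95% interval 54.1 to 100%). This compares with 82.9% of the regions assigned to any protein-coding gene and 84.2% of the 3521 listed regions. The 6 are 0.202% of the more accessible list (exact 95% interval 0.0743 to 0.440%). The 0 of 556 in the less accessible list allows a share of up to 0.540%, and the share of the more accessible list lies under this limit. These intervals and limits cover counting error only, and neighbouring regions are not independent.

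Within 500 kb of a member there were 38 more accessible and 12 less accessible regions, 50 in all, of which 8 were near more than 1 member. Their more accessible share of 76.0% (exact 95% interval 61.8 to 86.9%) compares with 84.2% in the whole lists. At least 1 region lay within 500 kb of 31 members (70.5%), beside 60.8% of all genes. For more accessible regions the count was 27 members (61.4%), beside 49.9%, and for less accessible regions 10 members (22.7%), beside 25.5%. The windows together cover 41.2 Mb and held 0.923 more and 0.291 less accessible regions per Mb, beside 1.10 and 0.207 per Mb of the annotated genome. The median distance from a member to the nearest region was 340 kb, and for all genes 341 kb. Most of the 50 regions had another host: 18 more and 6 less accessible ones lay inside another gene, 7 and 5 were nearest to another gene, and 7 and 1 had no protein-coding gene within 100 kb.

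**Figure D3:**
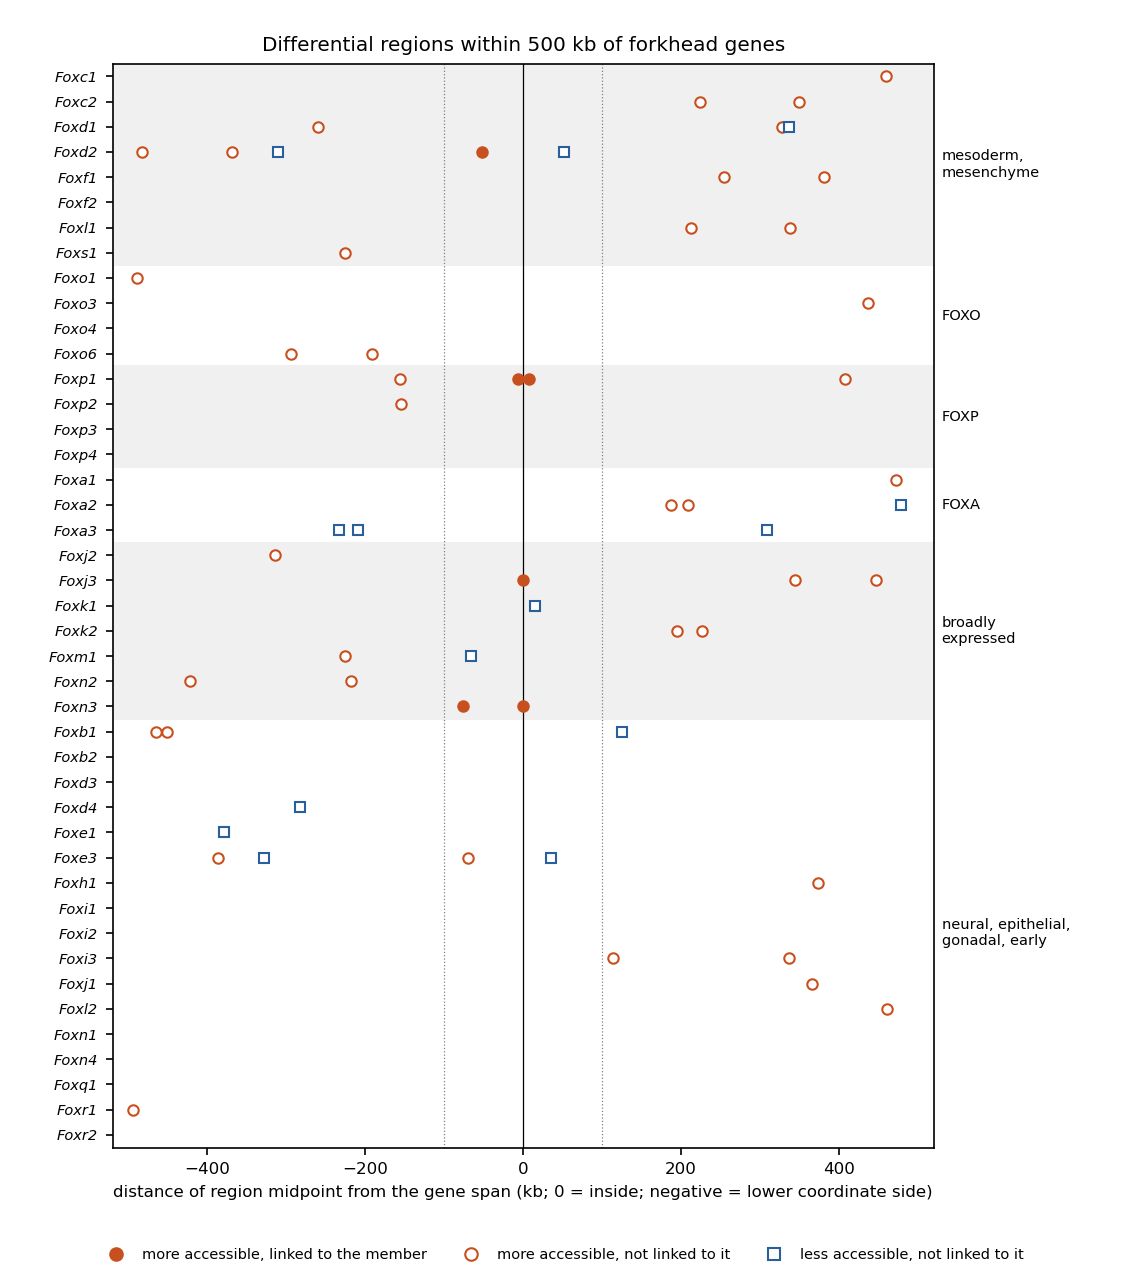
Differential regions within 500 kb of 43 of the 44 forkhead genes, grouped by role; the x axis is the distance in kb of the region midpoint from the gene span, with regions inside a gene drawn at or beside 0, circles are more accessible and squares less accessible regions, filled symbols are assigned to the gene, and dotted lines mark 100 kb. The 6 filled circles belong to 4 genes, no square is filled, and 12 of the genes drawn have an empty row.

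Among the 8 members with roles in mesoderm and mesenchyme, 7 had a region within 500 kb, beside 60.8% of all genes, and Foxd2 alone had one assigned, beside 7.27% of all genes with a more accessible region. Their median span was 2.84 kb, and of all genes under 10 kb 49.6% had a region within 500 kb. Foxf1, Foxc2 and Foxl1 count separately here although they share the same regions. Foxf1, Foxc2 and Foxl1, needed for gut and lung mesenchyme, for lymphatic vessels and skeleton, and for gut mesenchyme, lie next to each other on chromosome 8, with gaps of 28.0 and 8.79 kb. They shared 2 more accessible regions, both on the side of Foxl1. The nearer, chr8:121342856-121343411, was 212 kb from Foxl1, 224 kb from Foxc2 and 255 kb from Foxf1, and had no protein-coding gene within 100 kb. The farther, chr8:121468081-121469076, was 338 kb from Foxl1 and was assigned to 1700018B08Rik. No less accessible region lay within 883 kb of these 3 genes.

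Foxd1, a factor of stromal cells in the kidney, had 2 more accessible regions and 1 less accessible region in its window. Regions of opposite direction lay 8.35 kb apart at Tmem171, a more accessible one 328 kb and a less accessible one 336 kb from Foxd1. The third, 260 kb away on the other side, was inside Arhgef28. Foxc1, needed for eye, vessel and skull development, had 1 more accessible region 459 kb away inside Gmds. Its neighbour Foxf2, a factor of palate and gut mesenchyme, had none within 500 kb, the nearest being 639 kb away. Foxs1 had 1 more accessible region 226 kb away inside H13.

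None of the 4 FOXO genes had an assigned region, beside 7.27% of all genes for more and 1.99% for less accessible regions. Foxo1, which spans 81.8 kb, had its nearest region 489 kb away, inside Maml3, and Foxo3, which spans 94.9 kb, had its nearest 437 kb away, assigned to Ostm1. Foxo6 had 2 more accessible regions at 191 and 293 kb, both inside Hivep3. Foxo4 is on the X chromosome, where its nearest region was 1629 kb away. The 3 members on X had no region within 500 kb, beside 60.8% of all genes with one, and the nearest to Foxr2 was 7191 kb away. Few listed regions lay outside the autosomes, which held 2936 of the 2965 more accessible and 553 of the 556 less accessible ones.

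The 3 FOXA genes, regulators of gut, liver and lung endoderm, had no assigned region, beside the same 7.27% and 1.99% of all genes. Foxa2 had 2 more accessible regions at 187 and 209 kb, 21.9 kb apart and with no protein-coding gene within 100 kb, and a less accessible region at 479 kb. Foxa3 had 3 less accessible regions within 500 kb, at 210, 234 and 309 kb, and no more accessible region within 1988 kb. The first 2 were assigned to Psg19 and the third to Ercc1. Foxa1 had 1 more accessible region, 472 kb away.

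All 7 broadly expressed members had a region within 500 kb, beside 60.8% of all genes. Their median span was 49.9 kb, and the share rises with span. It was 63.5% for genes of 10 to 50 kb, 72.0% for 50 to 100 kb and 78.1% for 300 kb and over. Beside Foxn3 and Foxj3, Foxk1, a repressor active in muscle progenitors and metabolism, had a less accessible region 15.6 kb from its end, the closest of any less accessible region to a member. It lay inside the neighbouring gene Ap5z1, at chr5:142477339-142477837, and so was not assigned to Foxk1. Foxm1, which drives mitotic genes, had a less accessible region 66.4 kb away inside Tead4, a factor of the Hippo pathway, and a more accessible region 226 kb away inside Tspan9. Foxk2 had 2 more accessible regions at 195 and 227 kb, both inside Tbcd. Foxn2 had 2 at 218 and 421 kb, the second inside Fbxo11, and Foxj2 had 1 at 315 kb, assigned to Mfap5.

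Of the 18 neural, epithelial, gonadal and early embryonic members, 9 had a region within 500 kb, beside 60.8% of all genes. Their median span was 3.50 kb, and of all genes under 10 kb 49.6% had a region within 500 kb. None of the 18 had a region assigned, beside 7.27% of all genes for more and 1.99% for less accessible regions. Foxe3 had 2 more and 2 less accessible regions, all shared with Foxd2. Foxb1, a factor of the hypothalamus and midbrain, had a less accessible region 126 kb away with no protein-coding gene within 100 kb, and 2 more accessible regions at 451 and 465 kb inside Rora. Foxi3, needed for the ear and for hair and teeth, had more accessible regions at 114 and 337 kb. Foxh1 had 1, 373 kb away and inside Mb.

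The region closest to the 100 kb limit among those assigned was that at Foxn3, at 76.1 kb. Beyond the limit, the nearest region to a member was the more accessible one 114 kb from Foxi3, which was assigned to Rpl34-ps1 at 49.4 kb. The next was the less accessible one 126 kb from Foxb1, which was assigned to no gene.

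Genes that act with forkhead factors were counted in 3 lists. Of the 29 genes of insulin and PI3K signalling and of FOXO regulation and response, 6 (20.7%) had 10 more accessible regions, beside 7.27% of all genes with any, and 4 (13.8%) had 1 less accessible region each, beside 1.99% of all genes. Irs1, an insulin receptor adaptor, had 3 more accessible regions, and Pik3r1, the regulatory subunit of PI3K, had 2. Igf1r and Gadd45a had 1 each. The less accessible regions were at the insulin receptor gene Insr, the adaptor gene Irs2, the kinase gene Sgk1 and Trib1. In the Hedgehog list, whose signal acts upstream of several FOXF and FOXC genes, 6 of 15 genes had 10 more accessible regions, beside 7.27% of all genes with any, with 4 at Gli3, 2 at Disp1 and 1 each at Gli2, Gas1, Ptch1 and Cdon. Less accessible regions in that list were at 2 of the 15 genes, Hhip and Sufu, with 1 each, beside 1.99% of all genes.

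The list around FOXH1 held activin and Nodal pathway genes, namely ligands, receptors, a co-receptor, inhibitors and SMADs. Of its 16 genes, 3 had 4 more accessible regions, beside 7.27% of all genes with any. The type I receptor gene Acvr1b had 2, and Smad2 and Smad3 had 1 each, with 1 less accessible region at Smad3, beside 1.99% of all genes with any. The median spans of the 3 lists were 49.3, 65.1 and 21.6 kb, longer than the 5.19 kb of the forkhead genes and the 17.2 kb of all genes. Whether the lists differ from the forkhead genes was not tested.

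Other families of developmental transcription factors are given for scale. More accessible regions were assigned to 4 of 13 Tbx genes, 4 of 17 Klf genes, 1 of 19 Sox genes and 0 of 39 Hox genes, beside 7.27% of all genes. The Tbx genes had 8 such regions, with 4 at Tbx4 and 2 at Tbx15, and the Klf genes had 6, with 2 each at Klf9 and Klf13. Less accessible regions were assigned to 2 Sox genes, with 2 at Sox5 and 1 at Sox13, to 1 Klf gene, Klf14 with 1, and to no Tbx or Hox gene, beside 1.99% of all genes. The forkhead density was 1.08 more accessible regions per Mb of assignable sequence. It was 0 for the Hox, 0.267 for the Sox, 2.32 for the Klf and 5.08 for the Tbx family. The median assignable sequence of a Hox gene was 10.9 kb, beside 45.8 kb for all genes. Within 500 kb, 29 of the 39 Hox genes (74.4%) had a more accessible region, beside 49.9% of all genes. Hox genes lie close to each other, so their windows overlap and the same region can count for many of them. The 39 genes are therefore not independent in this share. The differences between families were not tested.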

How the data were processed

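ATAC-seq was done on 3 wild-type and 3 mutant libraries. The deposited lists, 1 per direction, hold the chromosome, start and end of each region in base pairs, and the direction was taken from the name of the list. The submitters' processing notes name the builds GRCm38 and mm10. The tools they list for the authors' work are MACS2, featureCounts, DESeq2, Bowtie2, Trimmomatic, bedtools and SAMtools. How versions, cutoffs, duplicates and pooling were set is not given in the sources used here.

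Gene spans, transcription starts and upstream sequences came from RefSeq tables of GRCm38.p6. Regions were assigned by midpoint, as the text describes. Shares have Clopper-Pearson 95% intervals (scipy 1.17.1), and the limit for a count of 0 is 3 counts. No significance test was run, since the lists hold no value per library. The assignment was checked on 400 simulated positions, all placed correctly.

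Members, gene lists, motifs and the naming rule (members with a region, those with the most regions within 500 kb, leading genes of each list) were chosen with earlier results of these data known. Genes with 1 region in the lists were named after their values were seen. A few genes covered by the naming rule are not reported here. A planned motif search in the regions was not run, as no genome sequence was used here.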

Additional observations from a re-analysis of the deposited data

How the results depend on the processing

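The counts rest on how regions are assigned. With assignment by the nearest gene end, 3 more accessible regions were assigned to forkhead genes in place of 6, since the regions inside Foxp1 and the one inside Foxn3 lie over 100 kb from either end of the span. With limits of 10 or 50 kb, or with noncoding genes included, the 4 regions inside Foxp1, Foxn3 and Foxj3 were assigned and those outside Foxn3 and Foxd2 were not. With a limit of 500 kb a seventh region, at Foxp1, was added. Merging regions within 10 kb, or taking any overlap in place of the midpoint, gave 6. No alternative assigned a less accessible region to a member.

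A window of 250 kb held 18 more and 6 less accessible regions, and one of 1000 kb held 86 and 25, beside 38 and 12 within 500 kb. No paired analysis was possible because the lists hold no value per library, and for the same reason no replicate could be left out. Depth and the set of peaks tested are unknown, so for a member without a region the lists do not tell an unchanged peak from no peak.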
